A study of Ovis aries with 18 samples.

Results

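Mitochondria carry their own genome, and the proteins that copy it, transcribe it and translate its messages are encoded in the nucleus and imported. The mitochondrial ribosome has a large subunit built mostly of MRPL proteins and a small subunit built mostly of MRPS proteins. TOMM and TIMM proteins form the import channels and chaperones of the outer and inner membranes. Brown adipose tissue is packed with mitochondria, which burn fuel for heat through UCP1, and in sheep the perirenal depot is the main site of this tissue before birth. The nuclear genes of the ribosome, of import, of DNA maintenance, of protein quality control and of fusion and fission were examined here for allelic imbalance (AI), that is, unequal numbers of RNA reads from the 2 alleles of a heterozygous SNP. They were picked by gene symbol alone from the table of allele counts, leaving out chromosome X, which gave 264 of the 24,355 SNPs in the table and 78 of its 5,810 genes, on 23 autosomes. At 262 of the 264 SNPs, in 77 genes, at least 1 fetus was heterozygous, so AI could be tested.

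All 18 libraries came from perirenal adipose tissue (PRAT) of singleton Merino fetuses, 16 labelled female and 2 male, taken at 132 d of gestation. The fetuses had a common sire and unrelated dams, were wild type and untreated, and formed 1 group, so that no condition was compared and the contrast was between the 2 alleles within a fetus. Each fetus was 1 library, and n below is the number of fetuses heterozygous at a SNP. Since the sire was shared, the fetuses were not unrelated. P-values of tests with fetuses as replicates measure the spread between these fetuses, and P-values on summed reads cover counting error only.

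Reads counted over all listed SNPs ranged from 2,970,824 to 5,334,585 per fetus, and those at the mitochondrial gene SNPs from 43,255 to 76,850. The tissue was checked by reads at the SNPs of marker genes: 4 of 6 brown adipocyte markers were listed, among them UCP1 with at least 4281 reads in every fetus at each of its SNPs. None of the 5 skeletal muscle, 3 kidney, 2 leukocyte and 2 erythroid markers had a listed SNP, which requires both expression and polymorphism. STAR of the adrenal cortex and VWF of endothelium were listed, the former at a median of up to 57 reads per fetus and the latter at up to 476.5. Of the fetuses labelled female, RS929 was heterozygous at 29.1% of X-linked SNPs, between the values of the males (25.4% and 32.4%) and below those of the other females (54.1% to 69.7%). Without RS929 the number of mitochondrial gene SNPs with AI was 151 in place of 150. Between any pair of fetuses 43.6% to 63.5% of genotype calls were the same.

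A SNP is written as the base of the Oar v3.1 reference, the position counted from 1 at the start of the chromosome, and the alternate base. The reference share is the share of reads with the reference base, summed over heterozygous fetuses unless a range over fetuses is given, and 0.5 is balance. AI was called at an unadjusted P-value under 0.05 of the Poisson likelihood ratio test on these sums, which treats all reads as independent. Since fetuses can differ by more than counting error, a moderated quasi-binomial F test with fetuses as replicates, Benjamini-Hochberg adjusted over all tested SNPs, is given beside it, and every adjusted P-value below is from that test unless another is named. Dispersion measures the spread of shares between fetuses, with 1 for counting error alone.

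AI was common and mostly small in the mitochondrial genes. It was called at 150 of 262 SNPs (57.3%), against a background of 45.0% of all tested SNPs in the table. The F test called 98 SNPs (37.4%), against 24.5%. At 125 of the 150 SNPs with AI the reference share lay within 0.1 of balance (83.3%, compared with 73.0% over all SNPs with AI), and no share fell outside 0.386 to 0.696. Direction was counted by reference or alternate base and not by haplotype, here and below unless a haplotype is named. It was uneven. The reference allele was higher at 108 SNPs with AI (background 33.8% of all tested SNPs) and the alternate allele at 42 (background 11.1%). Among SNPs with AI, the reference allele was higher at 72.0% here and at 75.3% in the whole table. The median reference share was 0.519 over the mitochondrial SNPs and 0.519 over all tested SNPs. With that median as the null share in place of 0.5, AI was called at 143 SNPs, of which 72 were above it.

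The mitochondrial genes were also read more deeply than the rest. A median of 177 reads per heterozygous fetus covered their SNPs, against 65 over all tested SNPs, and AI calls rose with depth in the table as a whole, from 32.8% of SNPs under 50 reads to 79.1% of SNPs with 400 or more. Compared within ranges of depth, the mitochondrial SNPs stood both above and below all SNPs. AI was called at 28.6% of them under 50 reads, at 60.4% from 50 to under 100 reads (42.6% of all SNPs), at 51.4% from 100 to under 200 (53.5%), at 67.9% from 200 to under 400 (64.97%) and at 63.3% with 400 or more.

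**Figure D1:**
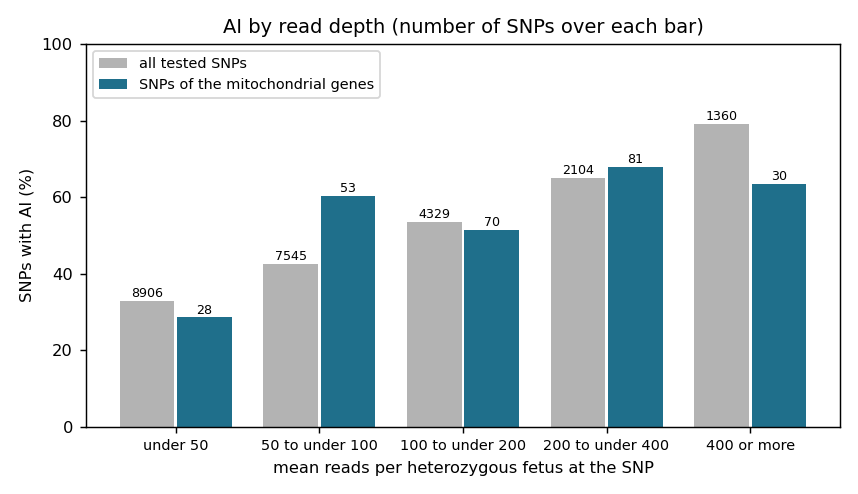
Percentage of SNPs with AI (vertical axis) by mean number of reads per heterozygous fetus (horizontal axis), for all tested SNPs (grey bars) and for the SNPs of the mitochondrial genes (blue bars), with the number of SNPs over each bar. Grey bars rise from 32.8% to 79.1%, and the blue bars lie above them in 2 of the 5 ranges.

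At the gene level, the smallest P-value of the gene passed the Bonferroni threshold of 8.63e-06 in 39 of 77 genes, against a background of 29.4% of the 5795 genes tested. By the F test, 13 of the 77 genes passed it, against 15.4%. When every fetus was down-sampled to at most 50 reads per SNP and genes were ranked again, 17 of the 77 genes (22.1%) stood among the 1448 highest ranks, against 25.0% of all genes by construction. At least 1 SNP with AI was found in 61 of the 77 genes, against 66.0% of all genes, and 16 genes had none. Those without AI were MRPL16, MRPL28, MRPL45, MRPL48 and MRPL51 of the large subunit, MRPS12, MRPS23, MRPS31 and MRPS33 of the small subunit, the release factors MTRF1 and MTRF1L, TIMM44 of the import motor, POLG2, C10orf2 and MTERFD2 of DNA maintenance and transcription, and DNM1L of fission.

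Shares differed between fetuses (Pearson chi-square, Benjamini-Hochberg adjusted) at 38 of 262 SNPs (14.5%), near the background of 15.4%, and the median dispersion was 1.55, compared with 1.41 over all SNPs, both above the value for counting error alone. At 49 of the 150 SNPs with AI every heterozygous fetus lay on the same side of 0.5. This count depends on depth and on the number of heterozygous fetuses, and it was not made for the whole table, so it cannot be called high or low. Of 2352 homozygous calls with at least 20 reads at the tested SNPs, 1996 had no read of the other allele and none had over 10% of such reads. No heterozygous call had a share under 0.1 or over 0.9. Genotypes were called from these same reads, so these counts cannot show whether the calls were right. A heterozygous fetus with strong imbalance could have been called homozygous.

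**Figure D2:**
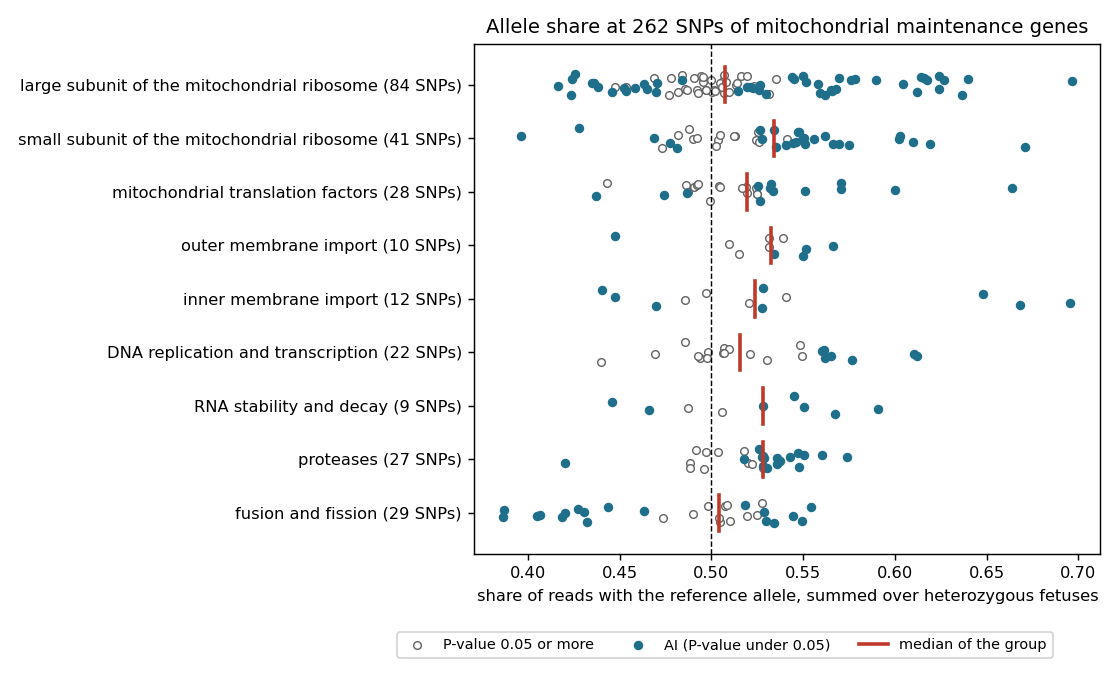
Reference share of each of the 262 SNPs (horizontal axis), summed over heterozygous fetuses, in 9 groups of genes by role (vertical axis), with SNPs with AI filled, the others open and the median of each group as a red bar. Shares run from 0.386 in the fusion and fission group to 0.696 in the large subunit, and group medians lie between 0.504 and 0.534.

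By role, AI was called at 48 of 84 SNPs (57.1%) in 25 MRPL genes, the large subunit group, against 45.0% of all tested SNPs. It was called at 27 of 41 SNPs (65.9%) in 15 genes named MRPS, grouped as the small subunit by symbol alone. Mitochondrial translation factors had 13 of 28 SNPs (46.4%) in 9 genes. The import groups had 5 of 10 SNPs (50%) in 5 genes of the outer membrane and 8 of 12 SNPs (66.7%) in 6 genes named TIMM. For replication and transcription of mitochondrial DNA the count was 7 of 22 SNPs (31.8%) in 7 genes. Proteases with the unfoldase CLPX had 17 of 27 SNPs (63.0%) in 5 genes, and fusion and fission genes 18 of 29 (62.1%) in 4 genes. LRPPRC, which stabilises mitochondrial messenger RNAs, had 7 of 9 SNPs (77.8%). The median depth ran from 46.3 reads per fetus in the replication and transcription group to 315 at LRPPRC. AI calls rose with depth in the whole table, and the groups were not compared at equal depth. The fusion and fission group was the only one of the 9 in which the alternate allele was higher at more SNPs with AI (11) than the reference allele (7). Of the 11, 9 were neighbouring SNPs of the OPA1 3' UTR, and without OPA1 the counts were 2 and 4. In the protease group 16 of 17 and in the DNA group 7 of 7 SNPs with AI had a higher reference allele, compared with 75.3% of all SNPs with AI.

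**Figure D3:**
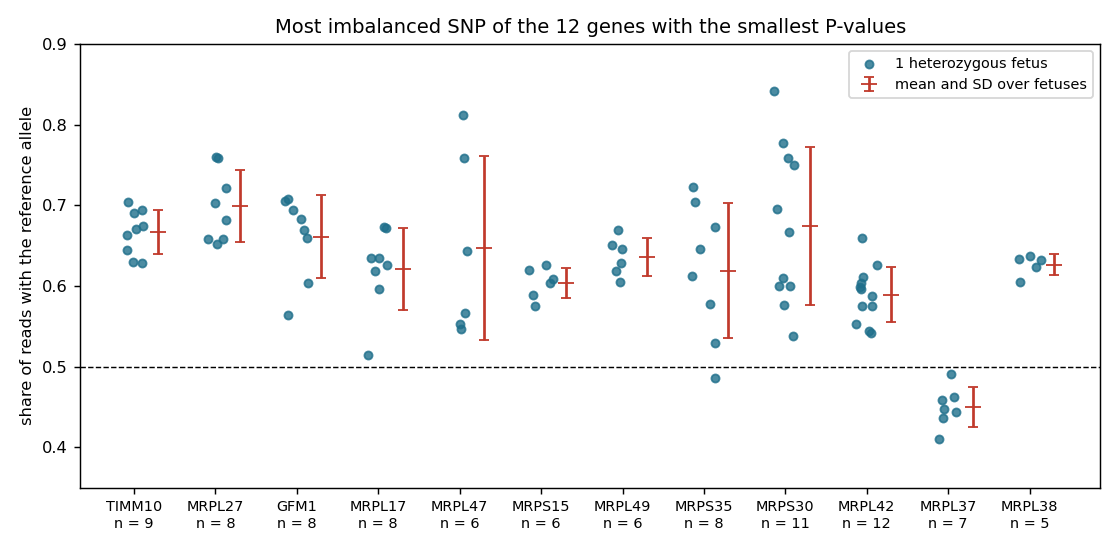
Reference share in each heterozygous fetus (points) at the SNP with the smallest P-value in the 12 genes with the smallest P-values, with the mean and SD over fetuses as bars. All fetuses lie above 0.5 in 10 genes, all below it in MRPL37, and MRPS35 has 1 fetus at 0.486 among shares up to 0.723.

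In the large subunit, MRPL27 held the share farthest from balance among all 262 SNPs. At its missense SNP C35839197G on chromosome 11, the 8 heterozygous fetuses ranged from 0.652 to 0.760 with a median of 0.692, and the mean was 0.699 ± 0.044 (SD, n = 8). Every fetus carried more reads of the reference allele, 1067 against 465 in all (adjusted P-value 1.31e-08). At the synonymous SNP G35839178C, a few bases away in other fetuses apart from RS929, the alternate allele was the higher one instead, with shares from 0.325 to 0.513 (mean 0.428 ± 0.073, n = 7, adjusted P-value 0.0360). By reference and alternate base, MRPL27 thus showed AI in opposite directions at neighbouring SNPs, but which of their alleles share a haplotype was not determined.

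MRPL17, MRPL42 and MRPL49 each had a SNP with a higher reference allele in all heterozygous fetuses. At the only MRPL17 SNP, the synonymous A45794779G on chromosome 15, shares ran from 0.514 to 0.673 with a median of 0.630 (0.621 ± 0.050, n = 8, adjusted P-value 5.85e-06). At the only MRPL42 SNP, A129632394C on chromosome 3, which changes the protein and lies in a splice region, they ran from 0.542 to 0.659 with a median of 0.592 (0.589 ± 0.035, n = 12, adjusted P-value 1.24e-06). The missense SNP C42647054T of MRPL49 on chromosome 21 gave 0.605 to 0.670 with a median of 0.638 (0.636 ± 0.024, n = 6, adjusted P-value 1.43e-06). These 3 SNPs differed in spread, with dispersion 2.47 in MRPL17, 1.19 in MRPL42 and 0.602 in MRPL49.

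Other SNPs of MRPL49 read differently. The missense SNPs C42646987A and A42646989T, 2 bp apart, were heterozygous in 15 fetuses, among the highest numbers in these genes, with reference shares of 0.507 and 0.519 and no AI. Their depth was 23.5 and 24.1 reads per fetus, whereas the nearby C42647020T, on the same chromosome and also without AI (0.508), was covered by 291 reads per fetus. The single-fetus shares at the pair spread from 0.250 to 0.800, and the difference between fetuses did not pass adjustment.

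MRPL47, a large subunit protein, had the most uneven fetuses among SNPs with AI. At its synonymous SNP G205707126A on chromosome 1, the reference share was 0.546, 0.553, 0.567 and 0.644 in 4 fetuses, 0.759 in RS903 (95% Wilson interval 0.694 to 0.814, 195 reads) and 0.812 in RS930 (0.756 to 0.858, 224 reads). The intervals of RS903 and RS930 lay above the shares of the other 4, and they cover counting error only. The dispersion was 13.2 and the difference between fetuses passed adjustment (adjusted P-value 3.58e-11, Pearson chi-square).

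The same 2 fetuses stood apart at the other end of the gene. The 3' UTR SNP A205722742G lies 15,616 bp away and was heterozygous in the same 6 fetuses, with genotype calls exactly reversed in all 18, so that its alternate allele lies on the haplotype of the other SNP's reference allele. Its reference share was 0.226 in RS930 (Wilson interval 0.163 to 0.304), 0.282 in RS903 (0.208 to 0.370) and 0.457 to 0.495 in the other 4. At T205722752C, 10 bp further on and covered partly by the same reads, RS930 had 0.242 and RS903 0.287, with 0.480 to 0.514 in the others. In RS903 and RS930 the same haplotype of MRPL47 was thus the higher one at both ends of the gene, while in the other 4 fetuses the 3' UTR SNPs were near balance. Under the F test the 3' UTR SNPs did not pass (adjusted P-values 0.0818 and 0.178), and G205707126A did (0.00239).

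MRPL38 had 15 SNPs, the joint highest number, and AI at 10 of them, with the reference allele higher at 4 and the alternate allele at 6. In 5 fetuses heterozygous at G54737655A on chromosome 11, annotated as downstream of the gene, the shares were 0.605, 0.624, 0.632, 0.633 and 0.637 (0.626 ± 0.013, adjusted P-value 1.50e-05). This was the tightest group among the named SNPs, with dispersion 0.138. At the synonymous A54735812C the alternate allele was higher in all 10 heterozygous fetuses, from 0.313 to 0.473 with a median of 0.431 (adjusted P-value 0.000278).

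A block of 10 MRPL38 SNPs was heterozygous in the same 12 fetuses and was examined by sets of fetuses, a division chosen after the values were seen. The 5 fetuses that were also heterozygous at G54737655A had reference shares of 0.363 to 0.440 at the missense SNP G54736852A, with a mean of 0.401 ± 0.030. The 7 others had 0.430 to 0.548, with a mean of 0.488 ± 0.042, so that the sets overlapped between 0.430 and 0.440. At the downstream SNPs G54737667A (0.383 to 0.425 against 0.424 to 0.571) and C54737621A (0.395 to 0.459 against 0.456 to 0.586) the overlap was narrow too. It was wider at A54737698G (means 0.395 and 0.505) and at C54737726T (0.370 to 0.472 against 0.404 to 0.584). The SNPs from C54737621A to C54737726T lie within 100 bp, a read length, of G54737655A, the SNP that divides the sets. They are covered partly by the same reads, so their separation is not an observation apart from the AI at G54737655A. G54736852A lies farther off than a read length. At the 5 SNPs further along in the block the sets overlapped over most of their range, as at T54739079G (0.450 to 0.532 against 0.452 to 0.563). At G54738269T and A54738677G, which are among these 5, the reference allele was higher in both sets of fetuses, with summed shares of 0.637 and 0.614 at the first and 0.615 and 0.614 at the second, although these SNPs had the same calls in all 18 fetuses as G54736852A, whose alternate allele was higher.

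**Figure D4:**
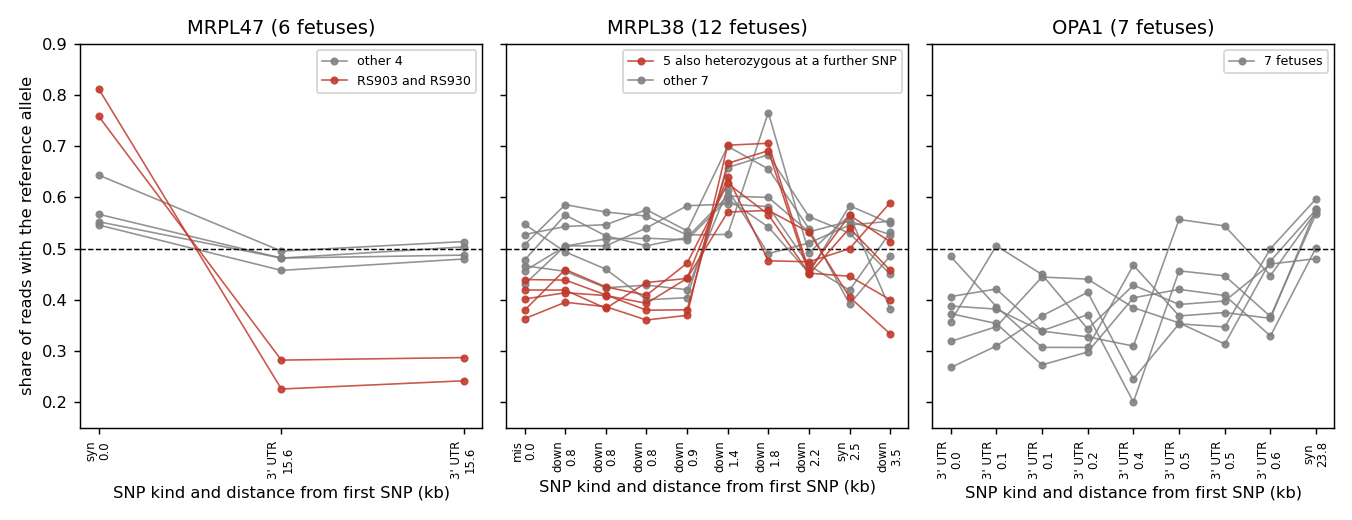
Reference share in each fetus (lines) at SNPs of MRPL47 heterozygous in the same 6 fetuses, of MRPL38 in the same 12, and of OPA1 in the same 7, ordered along the chromosome with the kind of SNP (mis for missense, syn for synonymous, down for downstream or noncoding) and the distance from the first in kb below. RS903 and RS930 lie at 0.759 and 0.812 and then at 0.282 and 0.226 in MRPL47, the 5 red MRPL38 fetuses lie at 0.363 to 0.440 at the first SNP, and the OPA1 lines rise from the 3' UTR to the coding SNP.

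MRPL37, another large subunit protein, was read at 1017 to 1488 reads per fetus. At its missense SNP G28463016A on chromosome 1, the alternate allele was higher in all 7 heterozygous fetuses, from 0.410 to 0.491 with a median of 0.447 (SD 0.025, adjusted P-value 0.000156). This was the only one of the 12 genes with the smallest P-values in which the alternate allele was higher at the leading SNP. At other SNPs the sum lay near balance while single fetuses did not. At the missense G28468407C the sum was 0.492, yet RS930 had 0.432 (Wilson interval 0.409 to 0.456) and RS953 0.565 (0.541 to 0.589), and the dispersion, 13.6, was the highest of all the mitochondrial SNPs. At the synonymous T28475984C the sum was 0.501 with dispersion 8.78. RS919, RS947 and RS953 were above 0.5 at both SNPs (0.520, 0.542 and 0.565 at the first, 0.537, 0.563 and 0.543 at the second), and RS930 was lowest at both.

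MRPL21 gave the same kind of picture at the synonymous SNP G45541050A on chromosome 21, with a sum of 0.513 and dispersion 7.66. RS943 had 0.630 (Wilson interval 0.562 to 0.693) and RS903 lay higher still (0.582 to 0.713), whereas the other 4 fetuses lay between 0.430 and 0.487. At its missense SNP T45541180C, in contrast, all 7 heterozygous fetuses lay close together, from 0.544 to 0.608 (0.577 ± 0.028, adjusted P-value 8.02e-05).

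The remaining named SNPs of the large subunit were less far from balance or less deeply read. MRPL22 had SNPs heterozygous in all 18 fetuses, the missense C63641060A and the synonymous A63688690C on chromosome 5. With no homozygous fetus at either, whether all reads came from 2 alleles of 1 locus was not tested. At C63641060A the reference allele was higher in 15 of 18 fetuses, from 0.444 to 0.661 (0.565 ± 0.058, n = 18, adjusted P-value 0.000314). At A63688690C it was higher in 12 of 18, from 0.422 to 0.647, which did not pass the F test (adjusted P-value 0.168). At the missense G18652921A of MRPL46 on chromosome 18, 12 of 14 fetuses had a higher reference allele (0.609 ± 0.079, n = 14, adjusted P-value 0.000132). MRPL44 showed AI in both directions on chromosome 2, with 0.563 ± 0.065 (n = 12) at the missense G225112153T and 0.414 ± 0.039 (n = 7) at the synonymous C225105737T, the latter from 45.3 reads per fetus (adjusted P-values 0.00988 and 0.0427). MRPL32, with 7 SNPs, had AI at 2 of them by the likelihood ratio test and at none by the F test, where its missense G78188265A had an adjusted P-value of 0.0547.

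In the small subunit, MRPS15 was the gene with the smallest P-value. At the synonymous C11057947T on chromosome 1, the 6 heterozygous fetuses lay between 0.576 and 0.626 with a median of 0.606 (0.604 ± 0.019, adjusted P-value 1.51e-06), from 443 reads per fetus (dispersion 0.703). Its other SNP, G11056895T, also showed AI of the reference allele but with a wider spread, from 0.481 to 0.594 (dispersion 3.18).

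MRPS35 had AI at all 6 of its SNPs, but not by the same amount. The missense G186873224A on chromosome 3 gave 0.486 to 0.723 with a median of 0.629 over 8 fetuses (0.619 ± 0.084, adjusted P-value 0.000507), and fetuses differed (dispersion 5.97). The synonymous G186885644T, 12,420 bp away with the same calls in all 18 fetuses, had a share of 0.535 and dispersion 1.57. The missense T186846494C had a higher alternate allele in 10 of 12 fetuses (summed share 0.469, adjusted P-value 0.0475), so the gene showed AI in both directions.

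MRPS30, placed in this group by its symbol alone, had 8 tested SNPs on chromosome 16, AI at 7 and also both directions. The missense C30051103T gave 0.538 to 0.842 with a median of 0.667, all 11 fetuses above 0.5 (0.674 ± 0.098, adjusted P-value 3.96e-05), from 66.5 reads per fetus. The 5 other SNPs at this end of the gene had the same calls in all 18 fetuses as this SNP and lower shares, from 0.541 to 0.603. The untested G30051389T lies in the same stretch, beside A30051391G, 1 of these 5. There all 18 fetuses were called homozygous for the alternate base, yet 21.6% of reads had the reference base. Whether such reads bear on the shares of the neighbouring SNPs was not tested. Toward the other end of the gene, the synonymous A30043401G had a higher alternate allele in 11 of 12 fetuses, from 0.348 to 0.510 (0.430 ± 0.047, adjusted P-value 0.000251).

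Among translation factors, GFM1, the elongation factor that moves the ribosome along the message, had the share farthest from balance. At A226970451C on chromosome 1, a missense SNP in a splice region, the 8 heterozygous fetuses lay between 0.565 and 0.708 with a median of 0.677 (0.661 ± 0.051, adjusted P-value 4.11e-07). The 2 other SNPs of GFM1 were close to balance, at 0.534 and 0.490. TUFM, the factor that brings aminoacyl-tRNA to the ribosome, was read at up to 1146 reads per fetus and had AI at all 3 of its SNPs, at shares no farther from balance than 0.487 and 0.532. MTRF1 and MTRF1L, release factors, had AI at none of 3 SNPs each.

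Among import genes, TIMM10, a chaperone of the space between the membranes, had the smallest P-value of all 77 genes. Its only SNP, C77994334T on chromosome 15, is annotated as intronic in a noncoding transcript, and the 9 heterozygous fetuses lay between 0.629 and 0.704 with a median of 0.671 (0.667 ± 0.028, adjusted P-value 5.63e-10). With 1453 reference and 721 alternate reads, the fetuses differed by no more than counting error (dispersion 0.794). TIMM8B, another such chaperone, went the other way and was picked after its values were seen. At its SNPs G21825318C and A21825378G the same 10 fetuses all had a higher alternate allele (0.441 ± 0.028 and 0.451 ± 0.022, adjusted P-values 0.000145 and 0.000459), in reads that partly overlap.

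TIMMDC1 shares the TIMM name but is known as an assembly factor of respiratory complex I. Its missense SNP G182594792A on chromosome 1 gave 0.593, 0.693, 0.717, 0.745 and 0.761 in 5 fetuses (0.702 ± 0.066, adjusted P-value 0.000356), and the synonymous C182605179T, 10,387 bp away in the same fetuses, gave 0.487, 0.644, 0.659, 0.677 and 0.794 (0.652 ± 0.110, adjusted P-value 0.00751). Reads of the reference allele were in excess in each fetus apart from RS918 at the second SNP. With 67.6 and 79.0 reads per fetus these were shallow, and an exact sign-flip test over 5 fetuses cannot go below P = 0.0625, the value reached at the first SNP. T182590856C, heterozygous in 16 fetuses, spread from 0.308 to 0.581 and did not pass the F test (adjusted P-value 0.295).

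The outer membrane genes were nearer to balance. TOMM5, a small subunit of the import pore, was read at 1294.5 reads per fetus at G50866300A on chromosome 2, and all 12 heterozygous fetuses were above 0.5, from 0.505 to 0.563 (0.535 ± 0.019, adjusted P-value 2.48e-05). TOMM40, TOMM22 and TOMM40L each had 1 of 2 SNPs with AI of the reference allele, and TOMM70A, an import receptor, had 1 of 3 with a higher alternate allele (0.447, n = 6).

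Of the genes that replicate and transcribe mitochondrial DNA, only MTERFD3 passed the Bonferroni threshold, and none did by the F test. The gene, also named MTERF2, belongs to the family of mitochondrial transcription termination factors, and at its missense SNP G175326615A on chromosome 3 no heterozygous fetus was below balance and the highest of 8 had 0.724 (0.612 ± 0.088, adjusted P-value 0.0129). POLG, the catalytic subunit of the mitochondrial DNA polymerase, had AI at 2 of 5 SNPs by the likelihood ratio test and at none by the F test. POLG2, its accessory subunit, had AI at none of 4 SNPs, and C10orf2, which encodes the Twinkle helicase, had a share of 0.507 at its only SNP. POLRMT, the mitochondrial RNA polymerase, had AI at 1 of 3 SNPs, T40633291C on chromosome 5 (0.611 ± 0.088, n = 7, adjusted P-value 0.0350).

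LRPPRC, which binds and stabilises mitochondrial messenger RNAs, carried 7 missense SNPs on chromosome 3. At G80313952T the reference share had a lowest value of 0.419 and a median of 0.447, at or below 0.5 in all 9 fetuses (0.445 ± 0.027, adjusted P-value 8.02e-05), from 551 reads per fetus. At T80223142C the reference allele was higher in all 6 heterozygous fetuses, from 0.535 upward (0.589 ± 0.046, adjusted P-value 0.00186). C80240137T, with the same calls in all 18 fetuses as T80223142C and 16,995 bp away, had a share of 0.5676, but G80322261A, also with the same calls and 99,119 bp away, had 0.487. A difference from balance at 1 end of LRPPRC was thus not found at the other end of the same haplotype.

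The 5 genes of the protease group, which includes the unfoldase CLPX, all passed the Bonferroni threshold by the likelihood ratio test, against 29.4% of all genes. They did so at small distances from balance, and none of the 5 passed it by the F test, against 15.4%. LONP1, the main protease of the matrix, had 11 SNPs on chromosome 5 with AI at 8, and the share farthest above 0.5 was at C16208987T, a synonymous SNP in a splice region, with 0.511 to 0.597 and a median of 0.567 (0.562 ± 0.027, n = 8, adjusted P-value 0.000587). The only LONP1 SNP with AI and a higher alternate allele, C16017248T (0.420), is annotated as 5' UTR but lies far before the others, which run from T16198669C to A16216983C. CLPX, the unfoldase partner of the CLPP protease, had AI at 4 of 8 SNPs. At its missense C11897175T on chromosome 7, 9 of 11 fetuses had a higher reference allele, from 0.483 to 0.635 (0.574 ± 0.053, adjusted P-value 0.00193). CLPP, AFG3L2 and YME1L1 had 1 of 2, 3 of 4 and 1 of 2 SNPs with AI, each with a higher reference allele.

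OPA1, which fuses inner membranes and shapes cristae, held the lowest reference shares. Its 9 SNPs in the 3' UTR on chromosome 1 all showed AI with a higher alternate allele, at shares of 0.386 to 0.432, and all 9 passed the F test. At C192034102T the 10 heterozygous fetuses lay between 0.268 and 0.518 with a median of 0.385, and 9 of the 10 were below 0.5 (0.388 ± 0.072, adjusted P-value 0.00100). Several of these SNPs lie within a read length of each other and 8 were heterozygous in the same 10 fetuses, so the 9 are not separate observations.

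The reference shares at the coding SNPs of OPA1 did not follow those of the 3' UTR. At the synonymous A192057917G, 23,815 bp from C192034102T, the 7 heterozygous fetuses ranged from 0.480 to 0.598 (0.554 ± 0.044, adjusted P-value 0.0197). All 7 were heterozygous at C192034102T too, and all 8 fetuses that were homozygous at both SNPs carried either both reference or both alternate alleles. By these genotypes the reference alleles were taken to lie on the same haplotype in the 7 fetuses, a relation looked up after the shares were seen. It was inferred and not observed there. The 3 other fetuses heterozygous at C192034102T were homozygous at A192057917G, so not every haplotype paired the alleles in this way. The haplotype taken to carry both reference alleles had a summed share of 0.364 in the 3' UTR and 0.554 in the coding SNP in the same 7 fetuses. At T192084875G, heterozygous in 16 fetuses, the reference allele was higher in 13 (0.534 ± 0.044, adjusted P-value 0.0153).

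MFN2, which fuses outer membranes, also had both directions, with 0.388 to 0.509 at the synonymous A39825301G on chromosome 12 (0.444 ± 0.044, n = 10, adjusted P-value 0.00531) and 0.507 to 0.587 at G39817254A (0.543 ± 0.029, n = 7, adjusted P-value 0.0327). At the former 8 of 10 fetuses had a higher alternate allele and at the latter all 7 a higher reference allele. MFN1 had AI at 2 of 5 SNPs by the likelihood ratio test and at none by the F test, and DNM1L, the fission GTPase, had AI at none of 3.

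AI in both directions, by reference and alternate base, was found in 15 of the 77 genes, against 16.5% of all genes. By the F test it was found in 8, against 7.01%. MRPL47 was among the 15, although by summed reads the same haplotype was higher at its SNPs with AI. Of the 53 genes with at least 2 tested SNPs, 34 had AI at 2 or more. In 16 of these the reference allele was higher at each SNP with AI, in 3 the alternate allele, and in 15 both occurred. This split was not made for the whole table. The 8 genes under the F test were MRPL27, MRPL38, MRPL44, MRPS30, MRPS35, LRPPRC, OPA1 and MFN2.

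Whether SNPs on 1 haplotype gave 1 answer was looked at in pairs of SNPs of a gene whose genotype calls were the same, or exactly reversed, in all 18 fetuses. Of such pairs more than 100 bp apart, the length of a read, there were 138 in 29 genes, and the share of a haplotype differed between the SNPs of a pair by a median of 0.030, compared with 0.033 over the 17,420 such pairs in the whole table. In 66 pairs both SNPs showed AI, and in 53 of these (80.3%) it was the same haplotype that was higher, compared with 84.8% in the whole table. Of the 13 others, 8 were in MRPL38, 3 in LONP1, 1 in LRPPRC and 1 in MRPL37, and pairs of a gene share SNPs. Each of the 8 MRPL38 pairs held G54738269T or A54738677G, read at 51.8 and 60.5 reads per fetus against 153 to 334 at their partners. Each of the 3 LONP1 pairs held C16215521T. Where the calls were reversed, so that the reference alleles lie on opposite haplotypes, the same haplotype was higher in 2 of 6 pairs with AI at both SNPs, compared with 62.1% of 610 such pairs in the whole table. Where the calls were the same the count was 51 of 60, compared with 88.6% in the whole table.

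**Figure D5:**
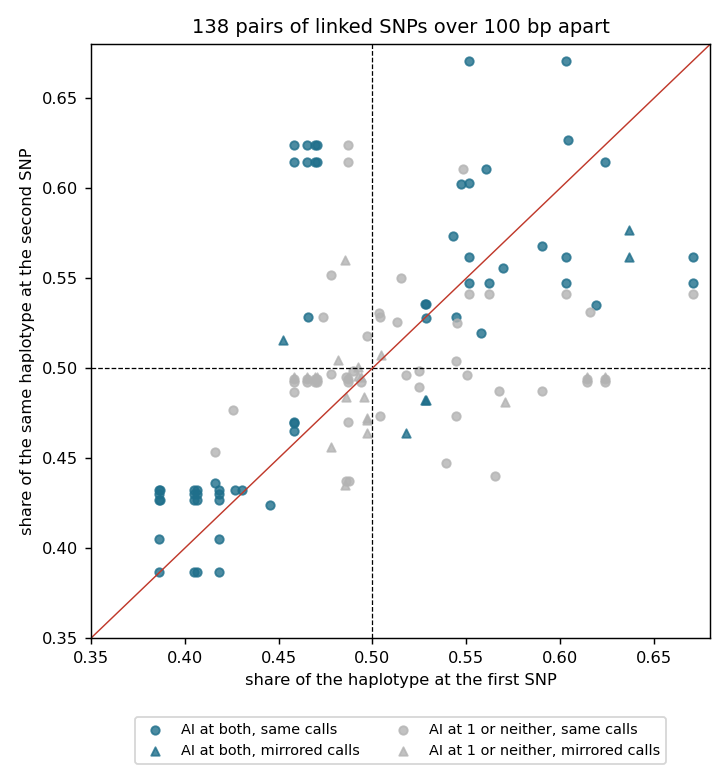
Share of reads of 1 haplotype at the first SNP of a pair (horizontal axis) and of the same haplotype at the second (vertical axis), for pairs over 100 bp apart with the same (circles) or reversed (triangles) calls in all 18 fetuses, in blue where both SNPs showed AI. Points on the red line have equal shares. The cluster at lower left holds the OPA1 3' UTR SNPs, and the cluster of 8 blue points above 0.6 at left holds MRPL38 pairs.

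By consequence, AI was called at 89 of 164 synonymous SNPs (54.3%, background 42.0% of all tested synonymous SNPs), at 39 of 66 missense SNPs (59.1%, background 49.1% of all tested missense SNPs) and at 14 of 19 SNPs annotated as 3' UTR alone (73.7%, background 50.1%), 9 of these 14 in OPA1. Of the 39 missense SNPs with AI, the reference allele was higher at 32 (82.1%), compared with 74.7% of all missense SNPs with AI. The F test was passed by 31 missense SNPs (47.0%), against 30.7%. The 11 SNPs in splice regions, 1 in each of 11 genes, all had a higher reference allele, at shares from 0.532 to 0.664, and 9 showed AI. Over all genes, splice region SNPs had a median share of 0.549 and 66.0% showed AI, with a higher reference allele at 84.1% of those with AI. No stop, splice donor, splice acceptor or start SNP was among the 264.

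Further genes of these pathways that the symbol rule did not take were read for comparison. Of 109 such genes, 60 had tested SNPs, with AI at 84 of 183 (45.9%), near the background of 45.0%. The Bonferroni threshold was passed by 20 of the 60 genes (33.3%), against 29.4% of all genes. By role, AI was called at 2 of 11 SNPs for DNA maintenance and transcription, 21 of 75 for RNA processing and ribosome assembly, 34 of 55 for import, processing and assembly, and 27 of 42 for quality control and dynamics. The smallest P-value belonged to IMMT, the scaffold of cristae junctions, with 0.596 ± 0.015 (n = 7) at the missense G57899366A on chromosome 3 (adjusted P-value 1.88e-09). The next were BNIP3, a mitophagy receptor (0.613 ± 0.046, n = 14), and HSPD1, the matrix chaperonin (0.570 ± 0.015, n = 7). TFAM, which packages mitochondrial DNA, had AI at 2 of 3 SNPs (0.590 ± 0.080, n = 11, at the leading one).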

How the data were processed

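RNA-Seq libraries of 18 fetuses (paired end, 100 bp, not strand specific) were aligned by the authors with STAR to Oar v3.1, keeping unique alignments. SNPs and genotypes were called from these RNA reads with GATK (3.4-46 in the submitters' notes). The deposited values are raw counts of reads per allele, per SNP and per fetus, with genotype calls, kept where at least 10 reads of each allele were found in 5 animals. The table's columns of the authors' own test (statistic, P-value, higher allele and share) were not used. From the counts, Poisson likelihood ratio tests, a quasi-binomial F test moderated with limma 3.58.1 and Pearson chi-square tests were computed (scipy 1.17.1) and tested on simulated data. Exact sign-flip tests used fetuses as units. Down-sampling used 20 rounds. Wilson intervals and P-values on reads cover counting error only. Reads are not strand specific, so overlapping genes cannot be told apart. The genes, lists and tests were chosen with earlier results of these data known. Named SNPs followed a rule: the 12 genes with the smallest P-values, the 6 largest distances from balance, the 6 largest dispersions, the 8 genes with most SNPs, genes with a stop, splice site or start SNP (none), genes with both directions under both tests, up to 10 missense SNPs under both tests, the 8 SNPs with most heterozygotes and the leading gene of each role. Alternatives were other tests and null shares, stricter read minimums, other down-sampling depths and leaving out each fetus. Of 78 gene symbols, 72 matched RefSeq symbols (ARS-UI_Ramb_v3.0).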

Additional observations from a re-analysis of the deposited data

Results flagged for a closer look

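Reads were seen at the 2 SNPs that no comparison used, because no fetus was called heterozygous there. At MRPS30 G30051389T on chromosome 16 all 18 fetuses were called homozygous for the alternate base, yet the reference base made up 21.6% of reads (269 of reference and 979 of alternate), from 14.9% to 28.4% per fetus. At MRPL43 G20970989T on chromosome 22, the only listed SNP of that gene, it made up 17.1% (431 and 2096 reads), from 9.38% to 25.0%, and over 10% in 17 of 18 fetuses. At the other mitochondrial gene SNPs, none of 2352 homozygous calls with at least 20 reads had over 10% of reads from the other base and the highest had 8.13%. Both SNPs are annotated as missense and change G to T. Among the 30 named SNPs with 4 to 10 heterozygous fetuses, no single fetus stood far enough from the others to be singled out by its gap to them, a criterion that chance meets in about 1 group in 20; RS903 and RS930 in MRPL47 stood apart as a pair.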

How the results depend on the processing

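Of 43 counts recomputed under other settings, 41 stayed within 1.5 times the reported value. The exceptions were both under the F test, with 98 SNPs with AI in place of 150 and 13 genes under the Bonferroni threshold in place of 39. With the median reference share as null, 72 SNPs had AI above it in place of 108 with a higher reference allele, and 29 genes passed in place of 39. Leaving out each fetus in turn gave 145 to 154 SNPs with AI, 104 to 110 with a higher reference allele, 37 to 40 missense SNPs with AI, 35 to 40 genes under the threshold, 31 to 40 SNPs that differed between fetuses, 16 to 20 genes among the 1448 highest ranks and 38 to 42 of the 45 named SNPs with AI (40 reported). No named SNP with AI changed direction under any setting, and 8 named SNPs changed call or side of balance when a fetus was left out, among them MRPL47 T205722752C without RS930 (0.468). No paired analysis was possible because no groups of fetuses were compared, while the contrast of alleles was itself within fetuses. Both alleles' reads come from the same alignments to 1 reference, whose part in the higher reference share was not tested.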
